A study of Homo sapiens with 7 samples.

Results

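The regions described here carried 5-hydroxymethylcytosine (5-hmC) in SK-N-BE(2) cells in normoxia, left the peak lists at a single time in hypoxia and were absent from every later list. They were found by merging overlapping peaks (1 bp or more in common) of the 6 lists on chromosomes 1 to 22 and asking in which lists each merged region held a peak. Of 407675 regions, 256472 were present at 0 h, and 14973 of these (5.84%, 95% Clopper-Pearson interval 5.75 to 5.93%) were lost for good. Presence in the lists chose them, so their absence is a description and was not tested.

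5-hmC is made from 5-methylcytosine by the TET enzymes, dioxygenases that use molecular oxygen, iron and 2-oxoglutarate. It is known as a mark of active gene bodies and enhancers and as a step on the way to unmethylated DNA, and it can leave a site by further oxidation and repair or by dilution when DNA is copied. SK-N-BE(2) is an established human neuroblastoma line with an amplified MYCN gene, and the series asked how MYCN and TET1 shape 5-hmC in low oxygen.

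The normoxia group was wild-type SK-N-BE(2) at 21% oxygen (0 h), and the 5 hypoxia groups were the same line after 6, 12, 24, 48 or 72 h at 1% oxygen. All groups grew in the same serum-containing medium, and each is 1 library, so no value below has a replicate error and every difference between times is one between single libraries. No normoxia sample was taken at a later time, so low oxygen and time in culture cannot be told apart.

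On these chromosomes the lists held from 280942 peaks at 0 h to 346595 at 72 h, and their covered length went from 145 Mb to 189 Mb. A list gives positions alone, without heights or scores, and read depth is unknown. The narrowest peak measured 226 bp in normoxia and between 231 and 242 bp in the hypoxia lists. The 72 h list, the longest and the one with the largest narrowest width, lacked 10.1% of the normoxia regions, and the 12 h list, with the smallest narrowest width of the hypoxia lists, lacked 13.9%. How far list length or narrowest width bears on a region's absence was not tested.

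By the time at which they left, 7449 of the lost regions were held in normoxia alone and missing from 6 h on, 1347 were first missing from the 12 h list, 831 from the 24 h list, 1361 from the 48 h list and 3985 from the 72 h list. The first of these groups made up 49.7% and the last 26.6% of the regions lost for good. As shares of all normoxia regions the 5 groups came to 2.9%, 0.525%, 0.324%, 0.531% and 1.55%. The late group is large in part by construction, since no list after 72 h could show a return.

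The share of absences that lasted has to be read beside the number of lists that followed, though it did not follow that number in order. At 6 h, 35475 of the 256472 normoxia regions were missing for the first time, and 7449 of these (21.0%) were never seen again in the 4 later lists. At 12 h, 14565 of the 220997 regions held until then were missing, and 9.25% of those were never seen again. For the 24 h list the numbers were 6434 of 206432 and 12.9%, and for the 48 h list, with a single list to follow, 3972 of 199998 and 34.3%. The first step therefore removed 13.8% of the regions still held, against 6.59%, 3.12%, 1.99% and 2.03% at the later steps.

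Looking only at the very next list gives each absence the same single chance of a return. Of the regions first missing at 6 h, 40.7% were back in the 12 h list (95% interval 40.2 to 41.3%). For regions first missing from the 12 h list this share was 66.3% (65.5 to 67.1%), for the 24 h list 72.9% (71.8 to 73.9%) and for the 48 h list 65.7% (64.2 to 67.2%). Absences that began between normoxia and 6 h were thus the least often undone in the next list. The groups were not alike beforehand, however. Regions first missing at 6 h had been held in 1 list, and those first missing at 12, 24 and 48 h in 2, 3 and 4 lists in a row. The part of this selection in the shares that left or came back was not tested. The intervals here and below cover counting error only, and neighbouring regions are not independent.

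Set against the other fates of normoxia regions, lasting loss was uncommon. A total of 192041 normoxia regions (74.9%) were present in all 6 lists, and 49458 (19.3%) were missing from at least 1 hypoxia list and seen again in a later one. The mirrored course, absent at 0 h, arriving at a single time and kept to 72 h, was taken by 69207 regions, or 4.62 for every region lost for good. That is 45.8% of the 151203 regions absent at 0 h. Gained outnumbered lost regions for each pair of mirrored patterns. Regions that the 0 h list alone lacked were 3.06 times as many as those that the 72 h list alone lacked, and regions in the last 2 lists alone were 10.8 times as many as those in the first 2 alone. Every hypoxia list was longer than the normoxia list, and the part of this in these ratios was not tested. With the same number of peaks per list, widest first, 28532 regions (11.1% of the normoxia regions) were lost for good.

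Regions lost for good were narrow in normoxia. Their median width at 0 h was 267 bp (interval 266 to 269 bp, quartiles 235 and 321 bp), where width is the summed length of a region's peaks in that list. Regions that were missing and came back had a median of 278 bp, and regions held in all 6 lists 484 bp. At 0 h, 542 lost regions (3.62%) reached 500 bp and 4 reached 1000 bp, against 47.8% and 26812 of the regions held throughout. Together the lost regions covered 4.42 Mb, or 3.05% of the length in normoxia peaks. All but 92 of them consisted of a single peak at 0 h.

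**Figure D1:**
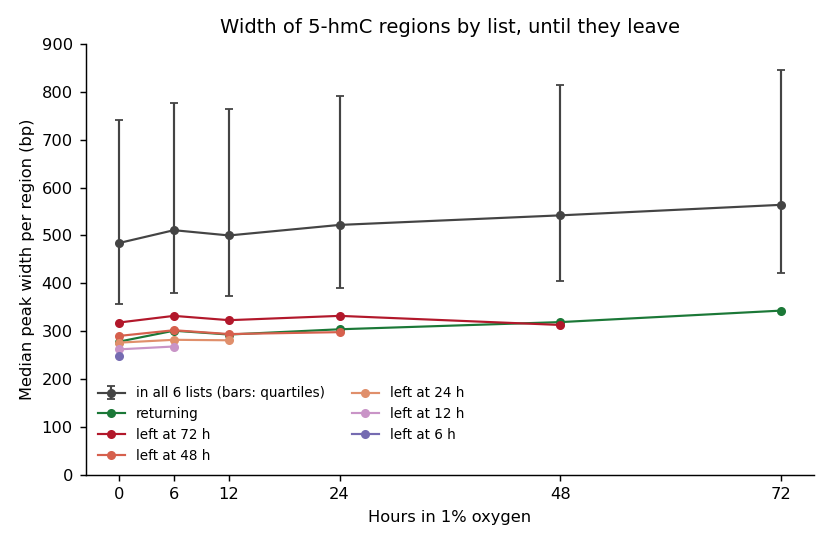
Median width of a region's peaks in bp (vertical axis) in each list by hours in 1% oxygen (horizontal axis), for regions grouped by the time they left, regions that came back and regions in all 6 lists, with quartile bars for the last. Regions that left sooner started narrower, from 248 bp for those gone at 6 h to 318 bp for those gone at 72 h, and every such group lies well under the 484 bp of the regions held throughout.

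The sooner a region left, the narrower it had been. Leaving later means by the rule being held in more lists, and width went with presence, so this order is a description and was not tested. Median 0 h width was 248, 262, 276, 290 and 318 bp for regions gone by 6, 12, 24, 48 and 72 h, in that order, and the intervals of the medians did not overlap (247 to 249, 259 to 266, 271 to 282, 284 to 296 and 314 to 321 bp). Many of the earliest stood at the smallest width the normoxia list contains. Of the regions gone at 6 h, 1948 (26.2%) measured exactly 226 bp at 0 h, against 165 (4.14%) of those gone at 72 h, 11.6% of those that came back and 1.03% of those held throughout.

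The share of normoxia regions lost for good went down steeply with their width. It was 19.8% under 250 bp (5542 of 27987), 12.5% from 250 to 299 bp, 5.84% from 300 to 399 bp, 2.33% from 400 to 499 bp, 1.13% from 500 to 699 bp and 0.286% from 700 to 999 bp. Of 26829 regions of 1000 bp or more, 4 were lost for good (0.0149%, interval 0.00406 to 0.0382%). Among regions that went missing at all, however, lasting loss took a similar part at every width. Per 100 regions that were ever missing, 26.9 were lost for good under 250 bp, 19.7 from 400 to 499 bp and 23.5 at 1000 bp or more. These shares mix times of leaving. Of the lost regions under 250 bp, 68.9% left at 6 h, with 4 later lists in which to return. Of the 542 lost regions that reached 500 bp, 403 left at 72 h, after which no return could be seen. In these lists, width therefore went with whether a region was ever missing. Whether it went with coming back cannot be read from these shares.

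**Figure D2:**
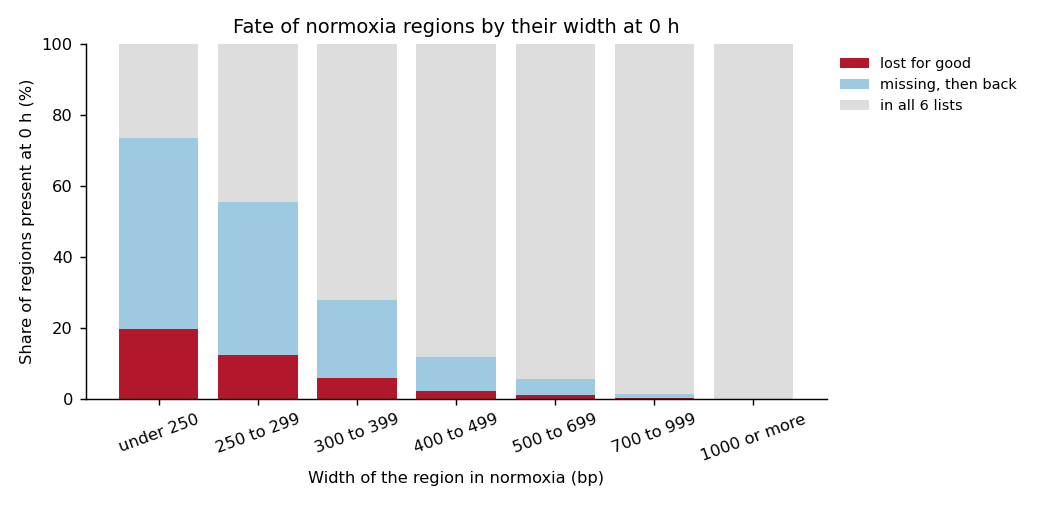
Share of normoxia regions in percent (vertical axis) that were lost for good, were missing and came back, or stayed in all 6 lists, by width at 0 h in bp (horizontal axis). The lost share runs from 19.8% under 250 bp to 0.286% between 700 and 999 bp, while between 19.7 and 26.9 of every 100 regions that were ever missing were lost for good at each width.

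Part of the narrow regions lay under the smallest width that a later list contains. At 0 h, 2703 of the 7449 regions gone at 6 h (36.3%) were narrower than the narrowest 6 h peak (235 bp), and 448 of the 3985 gone at 72 h (11.2%) were narrower than the narrowest 72 h peak (242 bp). Over all lost regions, 4569 (30.5%) were narrower than 242 bp at 0 h. The like shares of regions that came back or stayed were not counted. Under 250 bp, 53.8% of all normoxia regions came back and 19.8% were lost for good, so lying under these limits was not shown to be particular to lasting loss. How much of the loss goes with these limits was not tested beyond the count with peaks of at least 250 bp in every list, which left 11307 lost regions, 4.95% of the normoxia regions of that size.

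Before they left, regions were more often narrower than in an earlier list than the regions held throughout were. Over regions with a single peak in the lists compared, 57.6% of those that left at 72 h were narrower at 48 h than at 24 h (interval 56.1 to 59.2%, median difference -14 bp, n = 3817), against 42.9% of the regions in all 6 lists (median difference 14 bp). From 0 to 48 h, 51.7% of the former and 32.6% of the latter were narrower. Regions that left at 48 h were narrower at 24 h than at 0 h in 45.4% of cases (n = 1325), against 36.5% of the regions in all 6 lists. Both sets were wider on the median, by 7 bp and 28 bp, and the sets were not matched in width. Being dropped from a list and being narrow just before come from the same peak calls, so these values describe the approach to loss and are no separate evidence of it.

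The regions widest at 0 h among those lost are given singly, as examples. The widest lay on chromosome 4 from 6163557 to 6165073 (hg19, as are all positions here). Its peaks summed to 1401 bp in normoxia and to 974, 1275, 1081 and 608 bp in the hypoxia lists from 6 to 48 h. The 72 h list held none, and its nearest peak lay 954 bp away. A region on chromosome 10 from 16946441 to 16947736 measured 1077, 1009, 1296, 1116 and 1020 bp from 0 to 48 h and was then absent, with the nearest 72 h peak at 1506 bp. This one kept nearly its full width until the last list before it left, whereas the first had less than its starting width at each hypoxia time.

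The next widest were found on chromosomes 8, 16 and 3. On chromosome 8 from 145480439 to 145481493, width was 1055 bp in normoxia and 259, 605, 758 and 339 bp in the hypoxia lists from 6 to 48 h. On chromosome 16 from 58498875 to 58500103 it was 1014, 380, 804, 550 and 735 bp, and on chromosome 3 from 10396766 to 10398187 it was 998, 1128, 963, 1385 and 933 bp. At the first of these sites the hypoxia widths thus went up and down before the loss, and at the last the region was wider at 24 h than in normoxia. All 5 left at 72 h. In 1 of them, on chromosome 8, a 72 h peak remained within 137 bp.

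Among regions that left earlier, the widest gone at 6 h measured 947 bp at 0 h on chromosome 18 from 25696843 to 25697789, and its nearest 72 h peak lay 922 bp away. The widest gone at 12 h, on chromosome 16 from 1961786 to 1962487, measured 691 bp in normoxia and 247 bp in the only hypoxia list that held it. The widest gone at 24 h, on chromosome 15 from 74620987 to 74621752, measured 738, 235 and 458 bp in the lists that held it. The widest gone at 48 h, on chromosome 5 from 177890574 to 177891518, measured 814, 702, 308 and 655 bp. Each of the 3 that hypoxia lists still held was narrower in its last list than in normoxia. All were picked for their width at 0 h, which favours smaller widths later, so this is a description.

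Most lost regions had 5-hmC that stayed within 10 kb. The median gap to the nearest region held in all 6 lists was 1811 bp. Such a region lay within 1 kb for 35.9% of lost regions and beyond 10 kb for 14.8%. These shares were 31.7% and 17.3% for regions that came back, and 41.1% and 11.5% between regions held throughout. For regions that came back the median gap was 2267 bp, for regions gained for good it was 3532 bp, and between regions held throughout it was 1466 bp. From the edge of a lost region to the nearest peak of the 72 h list the median gap was 1121 bp. Within 300 bp, about the length of a sheared fragment, such a peak was found for 16.6% of the lost regions, and more than 10 kb away for 5.96%. Requiring that no later list has a peak within 300 bp left 12257 lost regions, and within 1000 bp 7804.

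At the border of the rule, 62 lost regions had a peak of a list they had left within 10 bp of their edge, the nearest of them touching it. Conversely, 54 normoxia peaks stayed on the other side through a largest overlap with any later peak of 10 bp or less. These cases are few beside the 14973 regions.

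By place, lost regions followed the normoxia regions in number, with Pearson's r = 0.967 over the 22 autosomes as a description. Lost regions are part of the normoxia regions, so this relation is largely given by construction. The share lost for good still differed between chromosomes. It was highest on chromosome 18, at 8.93% (324 of 3630 regions, interval 8.02 to 9.90%), followed by chromosome 11 at 7.36% (939 of 12752), chromosome 19 at 6.82% and chromosome 3 at 6.81%. It was lowest on chromosome 17, at 4.68% (472 of 10076, interval 4.28 to 5.12%), then chromosome 21 at 4.92% and chromosome 1 at 5.02%.

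Chromosome arms separated further, the arms being parted at the largest stretch without peaks. Of 39 arms the short arm of chromosome 11 had the highest share, with 370 of 3734 normoxia regions lost for good (9.91%, interval 8.97 to 10.9%). Next came 18q with 281 of 3147 (8.93%), 18p with 43 of 483 (8.90%, interval 6.52 to 11.8%) and 3p with 533 of 6289 (8.48%). These 4 arms held 8.19% of the lost regions and 5.32% of the normoxia regions. The lowest shares were those of 1q (4.40%), 17q (4.41%) and 2p (4.65%). Copy number of the arms in these cells was not analysed here.

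Since narrow regions were lost more often, each arm was also set against the number that its own 0 h widths would give at the rates of all autosomes, in steps of 20 bp up to 600 bp. With 247 expected, 11p held 1.5 times that number and remained the highest. Next were 19p at 1.41 and 22q at 1.33, whose regions were wider, with medians of 485 and 461 bp against 381 bp on 11p. 18q stood at 1.23 and 3p at 1.22, and 6q was lowest at 0.772. Allowing for width thus took part of the distance of 3p and 18q from the rest and moved 19p and 22q up.

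**Figure D3:**
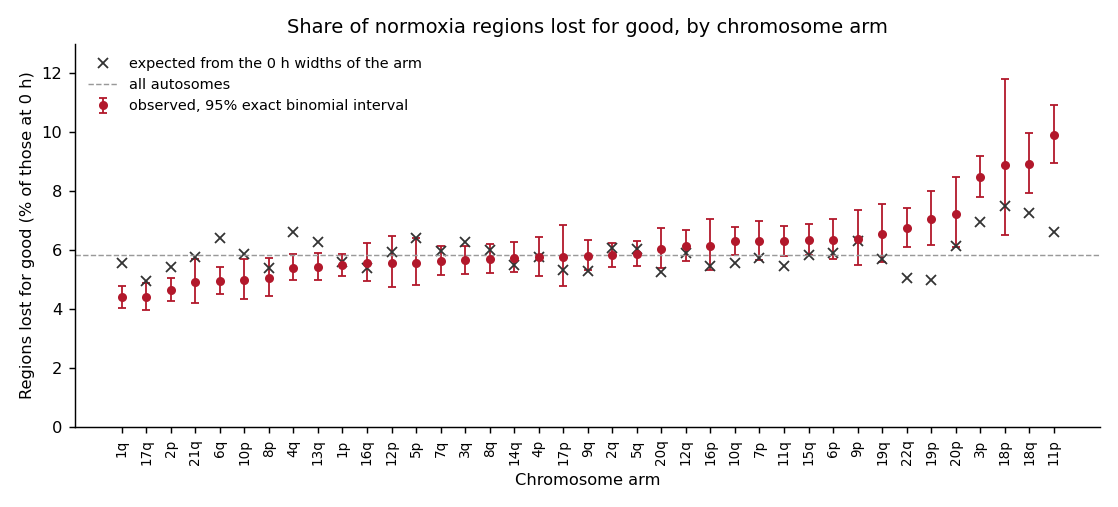
Share of normoxia regions lost for good in percent (vertical axis) on each of 39 chromosome arms (horizontal axis, ordered by that share), with 95% exact binomial intervals, and the share expected from each arm's 0 h widths as crosses. The arm 11p is highest at 9.91%, above its expected share, and 1q is lowest at 4.40%.

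The arms with many lost regions were not alike in the regions they gained. For every 100 regions gained for good, 11p lost 41.9, the most of any arm, and 19p and 22q lost 35.0 and 33.4. The ratio was 27.0 on 18q, 27.7 on 3p and 21.6 on 18p, where gains were also frequent. Regions that came back were frequent on the 4 arms of highest lasting loss, with 27.6% of the normoxia regions on 11p, 27.5% on 18p, 26.1% on 18q and 23.8% on 3p against 19.3% overall. Other arms went differently. On 22q, with 6.74% lost for good, 17.6% came back. On 4q and 6q, with 5.40% and 4.96% lost for good, 21.2% and 21.1% came back. Over the 39 arms the shares lost and returned went together (Pearson's r = 0.836, Spearman's rho = 0.460, as a description over arms of the same libraries). On 11p, 18p, 18q and 3p a high share of regions that dropped in and out thus stood beside the high share of lasting loss. Its part in that loss was not tested.

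Loss on 11p was spread along the arm and began with the first hypoxia list. All 10 of its 5 Mb bins with at least 20 normoxia regions lay above the share of all autosomes, from 6.75% to 13.7% (60 of 438 regions in the bin that starts at 15 Mb). Of its normoxia regions, 5.57% left at 6 h and 2.41% at 72 h, against 2.9% and 1.55% over all autosomes. On 3p, 13 of 18 bins lay above that share, the highest at 15.9% (34 of 214, from 35 Mb), and on 18q 11 of 13, the highest at 17.1% (42 of 245, from 30 Mb).

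By peak density, the share lost for good was highest in the sparsest bins. In the sparsest decile of 1 Mb bins 9.81% of normoxia regions were lost for good (137 of 1397), in the fifth decile 5.90% and in the densest decile 5.31% (3217 of 60553). The share that came back went from 36.1% to 15.6%. Median 0 h width was 318 bp in the sparsest and 492 bp in the densest decile. Set against the number expected from width, the ratio was 1.10 in the sparsest decile, 0.876 in the fourth and 1.15 in the densest, so that for their widths regions in dense bins were lost more often than those in bins of middle density.

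Most 1 Mb bins held a few lost regions each. Of 2665 bins with a normoxia region, 240 held no lost region, and the median was 5. The bin of chromosome 2 from 16 to 17 Mb held the most, with 35 of 177 normoxia regions lost (19.8%, interval 14.2 to 26.4%). It was followed by chromosome 11 from 12 to 13 Mb with 25 of 228, chromosome 11 from 15 to 16 Mb with 24 of 116 (20.7%), chromosome 11 from 67 to 68 Mb with 24 of 148 (16.2%) and chromosome 13 from 80 to 81 Mb with 24 of 173 (13.9%). Thus 3 of these 5 bins lay on chromosome 11.

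By share, among 2347 bins with at least 20 normoxia regions, the median was 5.43% and the range from the 5th to the 95th percentile was 1.38 to 12.0%. The highest share was found on chromosome 18 from 32 to 33 Mb, with 15 of 56 regions (26.8%, interval 15.8 to 40.3%), 11 of which left at 72 h. The others were chromosome 3 from 27 to 28 Mb with 5 of 20 regions, chromosome 3 from 36 to 37 Mb with 14 of 62, chromosome 19 from 54 to 55 Mb with 7 of 31 and chromosome 8 from 132 to 133 Mb with 8 of 37. The lower ends of their intervals ran from 8.66% to 15.8%, above the 5.84% of all autosomes, but these bins are the extremes of 2347.

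Most lost regions had no other lost region within 10 kb. The median gap between a lost region and the nearest other was 32.7 kb, and 23.4% had another within 10 kb (3511 of 14973, interval 22.8 to 24.1%). Regions that came back, of which there were more, had another of their kind within 10 kb in 45.8% of cases and regions held throughout in 88.5%. The classes differ in number, and the part of their numbers in these shares was not tested. Linked at gaps of at most 10 kb, 11462 lost regions (76.6%) stood alone, 2670 were in pairs, and 841 lay in clusters of 3 to 6.

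To set number aside, the normoxia regions around each lost region were asked how many of them were lost as well. Within 1 kb, 10.7% of neighbours of a lost region were lost for good, from 1 to 3 kb 6.82%, from 10 to 30 kb 6.57%, from 100 to 300 kb 6.11% and from 1 to 3 Mb 5.90%, against 5.84% of all normoxia regions. Around regions held in all 6 lists the shares were 8.99%, 5.57%, 5.67%, 5.70% and 5.71%. The high value under 1 kb was therefore seen around regions of either fate, and beyond 1 kb the excess around lost regions was small and became smaller with distance. Distances run between midpoints, so the widest regions cannot be counted within 1 kb of another, and narrower regions were lost more often. The part of this in the high value was not tested. Without 11p, 3p, chromosome 18 and a stretch of chromosome 2 from 16.05 to 16.6 Mb, 10.3% of neighbours within 1 kb and 6.60% from 1 to 3 kb were lost, against 5.65% of all normoxia regions left.

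**Figure D4:**
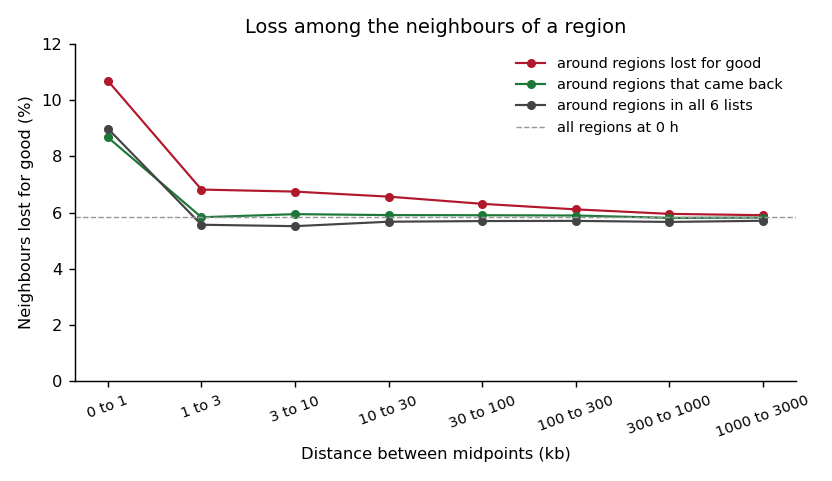
Share of neighbouring normoxia regions that were lost for good in percent (vertical axis) by the distance between midpoints in kb (horizontal axis), around regions lost for good, regions that came back and regions in all 6 lists. Beyond 1 kb the line around lost regions starts at 6.82% and comes down to 5.90%, while the lines around regions that came back and regions in all 6 lists run between 5.51% and 5.94% there.

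The next normoxia region along the chromosome was itself lost in 7.23% of cases, against 5.84% of all normoxia regions. Of the 1082 such pairs, 377 (34.8%, interval 32.0 to 37.8%) left at the same time, where the shares of the 5 times alone would give 33.8%. Neighbours that were both lost therefore did not leave together more often than their times would give, within the counting interval. Runs of successive normoxia regions that were all lost were short, with 927 pairs, 59 runs of 3, 8 of 4, 2 of 5 and 1 of 6. How many runs the share lost would give by itself was not worked out.

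The longest run covered 398 kb of chromosome 9 from 3626684 to 4025017, a stretch with only 6 normoxia regions. The runs of 5 lay on chromosome 18 from 32651670 to 32672187, with 4 of its regions gone at 72 h and 1 at 6 h, and on chromosome 3 from 36514532 to 36557713. The shortest runs of 4 lay on chromosome 7 from 82044293 to 82047735 and on chromosome 2 from 16087604 to 16091655. Both runs of 5 fell in the bins of highest share named above.

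Among clusters linked over 10 kb, 5 reached 6 members. The tightest spanned 13.6 kb of chromosome 2 from 16083085 to 16096694 and lost 6 of its 9 normoxia regions, 2 at 6 h and 4 at 48 h. The next, on chromosome 15 from 78926702 to 78942639, lost 6 of 9, and 5 of these left at 6 h with 0 h widths of 293 bp or less. A cluster on chromosome 18 from 53098705 to 53120199 lost 6 of 11, one on chromosome 4 from 6135241 to 6165073 lost 6 of 15 and one on chromosome 12 from 32267103 to 32297621 lost 6 of 14. The chromosome 4 cluster contains the widest lost region of all, and in the chromosome 12 cluster no lost region exceeded 325 bp.

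The bin with the most lost regions contains, and the tightest of the clusters with 6 lost regions lies in, the stretch of chromosome 2 from 16.05 to 16.6 Mb, which is known to hold MYCN, the transcription factor gene amplified in this line. No gene annotation of the build was used, and the limits of the stretch were taken over from an earlier look at these lists. Of its 126 normoxia regions, 33 were lost for good (26.2%, interval 18.8 to 34.8%), 23 were missing and seen again and 70 were held throughout. Its 0 h widths would give 5.96, so loss was 5.53 times that number. In the windows of the same length directly before and after it, 4 of 79 and 2 of 64 normoxia regions were lost.

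Loss there was centred on 48 h. Of the 33 lost regions, 17 (51.5%) left at 48 h and none at 72 h. The 6 h list was the first to lack 13 of them, the 12 h list 2 and the 24 h list 1. By contrast, 9.09% of lost regions over all autosomes left at 48 h and 26.6% at 72 h. No other 1 Mb bin had more than 5 regions that left at 48 h. Of the 126 normoxia regions, the lists from 6 to 72 h held 108, 109, 106, 70 and 88, in order of time. The 48 h list thus lacked 44.4% of them, against 10.3% of the normoxia regions of all autosomes, and the 70 it held were exactly those present in every list. New regions were scarce, with 2 gained for good in the stretch against 27 in the window before and 17 in that after it.

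**Figure D5:**
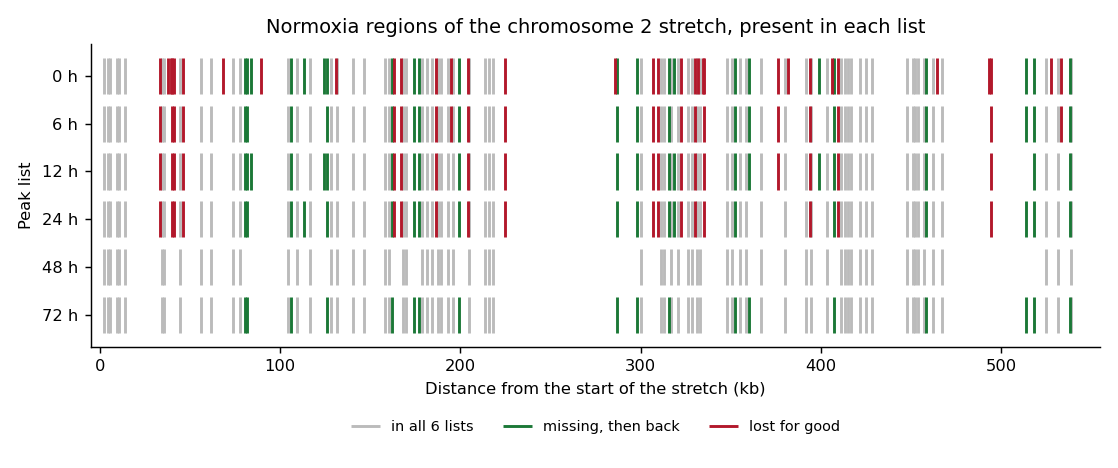
Normoxia regions of the chromosome 2 stretch as vertical marks at their distance in kb from its start (horizontal axis), drawn in each list (rows, 0 to 72 h) that held them and coloured by fate. Of 126 regions, the 24 h list holds 106, the 48 h list 70 and the 72 h list 88, and the 17 lost at 48 h are spread over the stretch.

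The 17 regions that left at 48 h were already narrower before they left. Their widths at 0 h ran from 255 to 755 bp with a median of 306 bp, and the medians in the 6, 12 and 24 h lists were 281, 285 and 266 bp. All 17 were narrower at 24 h than at 0 h, by a median of 52 bp, where 45.4% of the regions that left at 48 h over all autosomes were. The widest of them, from 16089920 to 16090674, measured 755, 671, 617 and 624 bp, and its neighbour from 16091258 to 16091655 measured 390, 350, 326 and 312 bp. Regions in the stretch that were never lost went the same way, with 65 of 70 narrower in the 24 h list, 65 in the 48 h list and 60 in the 72 h list than in normoxia. Their median width was 877 bp in normoxia, 655 bp in the 48 h list and 763 bp in the 72 h list.

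With peaks of at least 500 bp alone, the share lost in the stretch was 2.06 times that of all autosomes (interval 0.918 to 3.80) instead of 4.49 times (3.21 to 5.96). Most of its lost regions were under that width, with a median of 288 bp. The stretch was chosen with its values known, and the regions that left at 48 h rest on the 48 and 72 h libraries alone. Without the 48 h list the ratio was 3.74 and without the 72 h list 5.60.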

How the data were processed

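SK-N-BE(2) DNA was sheared and its 5-hmC tagged with an azide-bearing glucose, biotinylated and captured, per the labels' protocols, and 1 library per time was sequenced. The input library was not analysed here. Each deposited list gives the chromosome, start and end of peaks in hg19 and no other value. The submitters' processing notes list BWA 0.7.17, MACS2 and HTSeq with no role for each. Which threshold and control served for peak calling is not stated in these sources.

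Peaks on chromosomes 1 to 22 of the 6 lists were merged where they shared 1 bp. Starts were taken as counted from 0 and are printed counted from 1. Shares have 95% Clopper-Pearson intervals and medians have order-statistic intervals. There was no test between times. Named were the widest regions, the largest clusters, the longest runs, the leading 1 Mb bins (for shares, at least 20 regions) and all arms. Members, places and lists were chosen with earlier results of these data known. The chromosome 2 stretch, the expected numbers from width and the neighbour shares without leading places were added after the values were seen. Gene lists were not run, since no annotation or genome in hg19 was used, and no sequence is printed. On simulated lists of 20000 sites, 18 of 18 quantities were recovered exactly. Computations ran in Python 3.11.15 with pandas 2.3.3, SciPy 1.17.1, NumPy 2.4.6 and Matplotlib 3.10.9.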

Additional observations from a re-analysis of the deposited data

Results flagged for a closer look

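Chromosome X lies outside the rule that chose the regions, and its lists hold the same kind of regions. Of its 3613 regions present at 0 h, 343 were lost for good (9.49%), against 5.84% on chromosomes 1 to 22. On the remaining sequences 57 of 508 (11.2%) were. These values are given without a test or an explanation.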

How the results depend on the processing

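The number of lost regions stayed within 1.5 times of 14973 under 10 of 13 alternatives and lay outside it in 7804 (no later peak within 1000 bp), 5805 (peaks of at least 500 bp) and 28532 (the same number of peaks per list, widest first, which drops the narrow peaks of the hypoxia lists only). Leaving out each hypoxia list gave 18072 to 18400 lost regions, 7.002 to 7.13% of the normoxia regions, median widths of 263 to 268 bp and 26.4 to 27.9% with another lost region within 10 kb. An absence or a return in the list left out goes unseen. Without the 72 h list, regions first missing from it count as held throughout. The share of normoxia regions was 5.10% with peaks merged over 300 bp, 4.78% and 3.04% without a later peak within 300 and 1000 bp, 4.95% and 6.58% with peaks of at least 250 and 500 bp, 11.1% with the widest peaks and 5.71% by normoxia peaks. In the same order, the share with another lost region within 10 kb was 16.8%, 19.4%, 14.8%, 19.3%, 14.1%, 36.1% and 25.5%, and with other distances it was 4.17% within 1 kb, 13.9% within 5 kb, 61.8% within 50 kb and 79.3% within 100 kb. Median width was 303 and 567 bp with peaks of at least 250 and 500 bp and 277 bp with the widest peaks. The ratio to all autosomes ran from 1.62 to 2.02 on 11p, 1.33 to 1.83 on 3p, 1.39 to 1.91 on chromosome 18 and 2.06 to 5.60 in the chromosome 2 stretch over these 13 alternatives, and none of these ratios came to the other side of 1. Beyond what the constructions show, the causes were not tested. Depth is unknown. No paired analysis was possible because each time has 1 library.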

Other observations

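Lost regions were looked at by their distance from the chromosome ends, as marked by the first and last peak. Within 1 Mb of an end 6.41% of the normoxia regions were lost for good (353 of 5507), from 1 to 5 Mb 5.68%, from 5 to 20 Mb 5.74% and farther inside 5.88%. Set against the number that 0 h widths would give, the ratios were 1.28, 1.19, 1.04 and 0.958. For every 100 regions gained for good, 32.8 were lost within 1 Mb of an end and 20.3 beyond 20 Mb. Near the ends there were thus fewer gained regions for each lost one than in the interior.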
